A study of Mus musculus with 41 samples.

Results

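RNA levels of 10 claudin and tight-junction genes were followed across 41 mouse mammary tumors. The genes were Cldn1, Cldn3, Cldn4, Cldn7, Cldn8, Cldn12, Ocln, Marveld2, Tjp3 and Cgn. They were chosen by symbol, and all 10 were found among the 47480 symbols of the table. Of these, 28 were Plk2-/-; p53-/- and 13 were p53-/-, all in the Balb/c background and all grown untreated in the mammary fat pads of syngeneic hosts, with 1 mRNA library per tumor. Both groups lack p53, so the p53-/- tumors serve as controls for the loss of Plk2 and no tumor or gland with both genes intact enters any comparison. The Plk2-/-; p53-/- tumors descend from double-null mammary epithelium placed in cleared fat pads of wild-type mice. Tumors of both groups are kept as serial transplants, and the labels do not say which of them share a transplant line, so p-values treat each tumor as separate and may measure spread that related tumors share. The study's text names CL743, whose number PLK2null-743 carries, and the p53-/- tumor T11 as claudin-low. PLK2null-732 and PLK2null-733 are grouped here as claudin-low with PLK2null-743, although the study's text does not name them.

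Tight junctions seal the space between neighbouring epithelial cells. Claudins form the strands of the junction and set which ions pass between cells, occludin (Ocln) and tricellulin (Marveld2) are MARVEL-domain proteins of the strands, with tricellulin enriched where 3 cells meet, and ZO-3 (Tjp3) and cingulin (Cgn) lie in the plaque that joins the strands to the actin cytoskeleton. In the mammary gland these proteins mark the luminal epithelium and hold milk in the lumen. Claudin-low tumors are named for their low levels of Cldn3, Cldn4 and Cldn7 and for the loss of other epithelial adhesion genes.

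Values are given in the deposited unit, in which the upper quartile of the nonzero values is 1000 in every tumor, and differences are differences in mean log2(value + 1), where changes of weakly expressed genes come out smaller than they are. The low values lie on steps that give 29409526 to 70868089 sequenced fragments per tumor, and the detection floor used here, 3 reads, amounted to 1.16 to 2.45. The floor covers counting error only, and intervals of differences come from the spread between tumors. Plk2 was at 36.6 to 553 in the Plk2-/-; p53-/- tumors and at 186 to 8028 in the p53-/- tumors, where the library labelled p53null-7435 was lowest and fell within the Plk2-/-; p53-/- range. Trp53 RNA was read in every tumor of both genotypes and does not check the p53 label. All 13 p53-/- titles carry a numbered series name that no Plk2-/-; p53-/- title carries, so the genotype and a series of libraries cannot be told apart. In bulk tumors, fewer cells that express a gene and less RNA per cell cannot be told apart either.

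The defining markers of epithelium were checked before the claudins, since a label of mammary tumor implies them. The summed value of Epcam, Krt8, Krt18 and Cdh1 was 40.1 to 248 in PLK2null-732, PLK2null-733 and PLK2null-743, against 12794 to 109867 in the other 25 Plk2-/-; p53-/- tumors. Endothelial markers (Pecam1, Cdh5, Kdr, Tie1 and Emcn) summed to 157065 to 175265 in the same 3 tumors and to 2261 to 72933 in the other 25, the highest of which was primary tumor PLK2null-7763. Hemoglobin RNA (Hba-a1 and Hbb-bs) summed to 58915 to 230238 in the 3 and to 249 to 14024 in the 25. T11 differed from these 3 tumors, with 33708 for the epithelial list, made up almost wholly of Krt8 at 11057 and Krt18 at 22508 beside 81.4 for Epcam and 61.9 for Cdh1, and with 6034 for the endothelial list. No marker of either list was at 0 in any of the 41 tumors. Basal markers (Krt5, Krt14 and Trp63) summed to 11.9 to 155 in the 3 tumors and to 52.3 in T11, and the part of any of these lists in the claudin values was not tested.

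The 10 genes lie on 6 chromosomes of GRCm38, the mm10 build, in the GENCODE vM21 annotation. There are 2 pairs of neighbours. Cldn3 (chromosome 5, 134986214 to 134987472, plus strand) and Cldn4 (134945119 to 134946934, minus strand) are single-exon genes 39.3 kb apart, and Cldn12 (5489537 to 5514958, minus strand) lies 129 Mb away on the same chromosome. Ocln (chromosome 13, 100496507 to 100552718) and Marveld2 (100595957 to 100616971) both lie on the minus strand, 43.2 kb apart and on the same chromosome as Plk2, whose start is 9.84 Mb beyond Ocln. Cldn1 (26356642 to 26371841) and Cldn8 (88560828 to 88563183) are on the minus strand of chromosome 16. Cldn7 (69964779 to 69967885, plus strand) is on chromosome 11, 373 kb from Trp53. Tjp3 (81273207 to 81291581, minus strand) is on chromosome 10 and Cgn (94760069 to 94786492, minus strand) on chromosome 3.

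Promoter windows of 250 bases before each start site were taken from RefSeq on GRCm38.p6 for 9 of the 10 genes, 15 windows in all, because 9 of the 10 genes shared low values in the same 4 tumors. Cldn8 had no entry. The windows were searched on both strands for CAGGTG, the E-box letters to which the Snail and Zeb repressors are known to bind, and for AACNNGTT, the letters bound by grainyhead-like factors, which activate epithelial junction genes. CAGGTG or its complement CACCTG stood in a window of 4 genes (Cldn4, Cldn7, Ocln and Tjp3), and 17.2% of the 32851 RefSeq promoters held it. In Cldn7 and Ocln the matches stood in the window of a second start site, which overlaps annotated exons of the same gene. AACNNGTT stood in the window of 1 gene, Cgn, and in 3.64% of all promoters. Both shares count single windows, whereas each gene is counted once over all its windows. A gene with more than 1 window has more chances of a match, so the counts of genes are not compared with the shares. Cldn12 is the gene outside this shared pattern, with a smaller decrease in the 3 Plk2-/-; p53-/- tumors and a higher value in T11. Printed below are the windows of the neighbours Cldn3 and Cldn4, of the plaque genes Tjp3 and Cgn, and of Cldn12. They run 5′ to 3′ on the gene's own strand, with matches in capitals.
Cldn3, chr5:134985964-134986213, plus strand: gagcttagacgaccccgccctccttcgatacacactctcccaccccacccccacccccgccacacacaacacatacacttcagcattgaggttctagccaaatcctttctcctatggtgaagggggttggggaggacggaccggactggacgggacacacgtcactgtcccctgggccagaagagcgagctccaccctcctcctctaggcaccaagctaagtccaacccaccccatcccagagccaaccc
Cldn4, chr5:134946935-134947184, minus strand: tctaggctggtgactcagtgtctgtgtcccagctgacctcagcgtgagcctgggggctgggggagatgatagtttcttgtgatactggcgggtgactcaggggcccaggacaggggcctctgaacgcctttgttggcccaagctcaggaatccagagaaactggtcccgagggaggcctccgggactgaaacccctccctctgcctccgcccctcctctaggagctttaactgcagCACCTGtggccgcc
Tjp3, chr10:81291582-81291831, minus strand: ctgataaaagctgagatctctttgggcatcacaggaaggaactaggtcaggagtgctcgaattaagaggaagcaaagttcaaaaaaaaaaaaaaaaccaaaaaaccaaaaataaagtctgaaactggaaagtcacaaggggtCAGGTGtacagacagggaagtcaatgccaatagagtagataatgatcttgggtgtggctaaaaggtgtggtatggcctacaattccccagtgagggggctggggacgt
Cgn, chr3:94786483-94786732, minus strand: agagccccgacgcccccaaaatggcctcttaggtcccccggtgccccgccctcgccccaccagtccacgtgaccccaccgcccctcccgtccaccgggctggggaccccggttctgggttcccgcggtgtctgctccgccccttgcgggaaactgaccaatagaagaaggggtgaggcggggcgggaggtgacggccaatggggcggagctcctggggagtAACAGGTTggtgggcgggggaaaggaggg
Cldn12, chr5:5514977-5515226, minus strand: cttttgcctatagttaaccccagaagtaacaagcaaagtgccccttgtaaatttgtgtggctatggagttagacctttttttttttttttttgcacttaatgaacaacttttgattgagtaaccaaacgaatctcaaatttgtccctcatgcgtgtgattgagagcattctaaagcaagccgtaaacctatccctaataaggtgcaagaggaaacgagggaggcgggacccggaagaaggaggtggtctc

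Counted from the start site, the match in Cldn4 began at -14, that in the first Tjp3 window at -108 and that in Cgn at -29. The printed Cldn3 and Cldn12 windows held neither motif. A match is a description of the letters in the window and not a site of binding, and a window without a match says only that these letters are not in it.

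Compared per kilobase of the longest protein-coding transcript, the claudins of the luminal epithelium stood highest in the tumors that are not claudin-low. In the 25 Plk2-/-; p53-/- tumors the median level per kilobase was 4769.7 for Cldn3, 2458 for Cldn7 and 1575 for Cldn4. The other genes followed at 361 for Marveld2, 343 for Cgn, 264 for Tjp3, 257 for Cldn12, 178 for Cldn1, 172 for Ocln and 131 for Cldn8. The ranges over tumors of each pair of neighbours in this order overlapped. The 12 p53-/- tumors had the same 3 genes on top in the same order (5560 for Cldn3, 3061 for Cldn7 and 2601 for Cldn4), with Cldn12 lowest at 203 per kilobase. By the union of protein-coding exons the order among these 12 tumors was Cldn3, Cldn4 at 2601 and Cldn7 at 2097. In the 3 claudin-low Plk2-/-; p53-/- tumors Cldn12 was the highest of the 10, at 167 to 207 per kilobase, and the next highest value was 44.6, for Cldn4 in PLK2null-732.

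Of the 10 genes, 9 were lower in each of PLK2null-732, PLK2null-733 and PLK2null-743 than in any of the other 25 Plk2-/-; p53-/- tumors, and 8.87% of the 17153 genes compared had this pattern. The exception was Cldn12. PLK2null-732 and PLK2null-733 were among the closest pairs of libraries in the series (median chi-square of 5.97 per gene). The labels do not say whether the 3 tumors share a transplant line. The median difference of the 10 genes was -6.71 on the log2 scale, or -6.59 with libraries under 3 reads set to that floor, beside 0.02 for all genes compared. The study assigned its tumors to classes by clustering the same libraries on an intrinsic gene list, so the values are a description and no test was made. The 3 tumors also had an epithelial sum of 40.1 to 248 and an endothelial sum of 157065 to 175265. The part of epithelial and endothelial content in the low values was not tested.

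**Figure D1:**
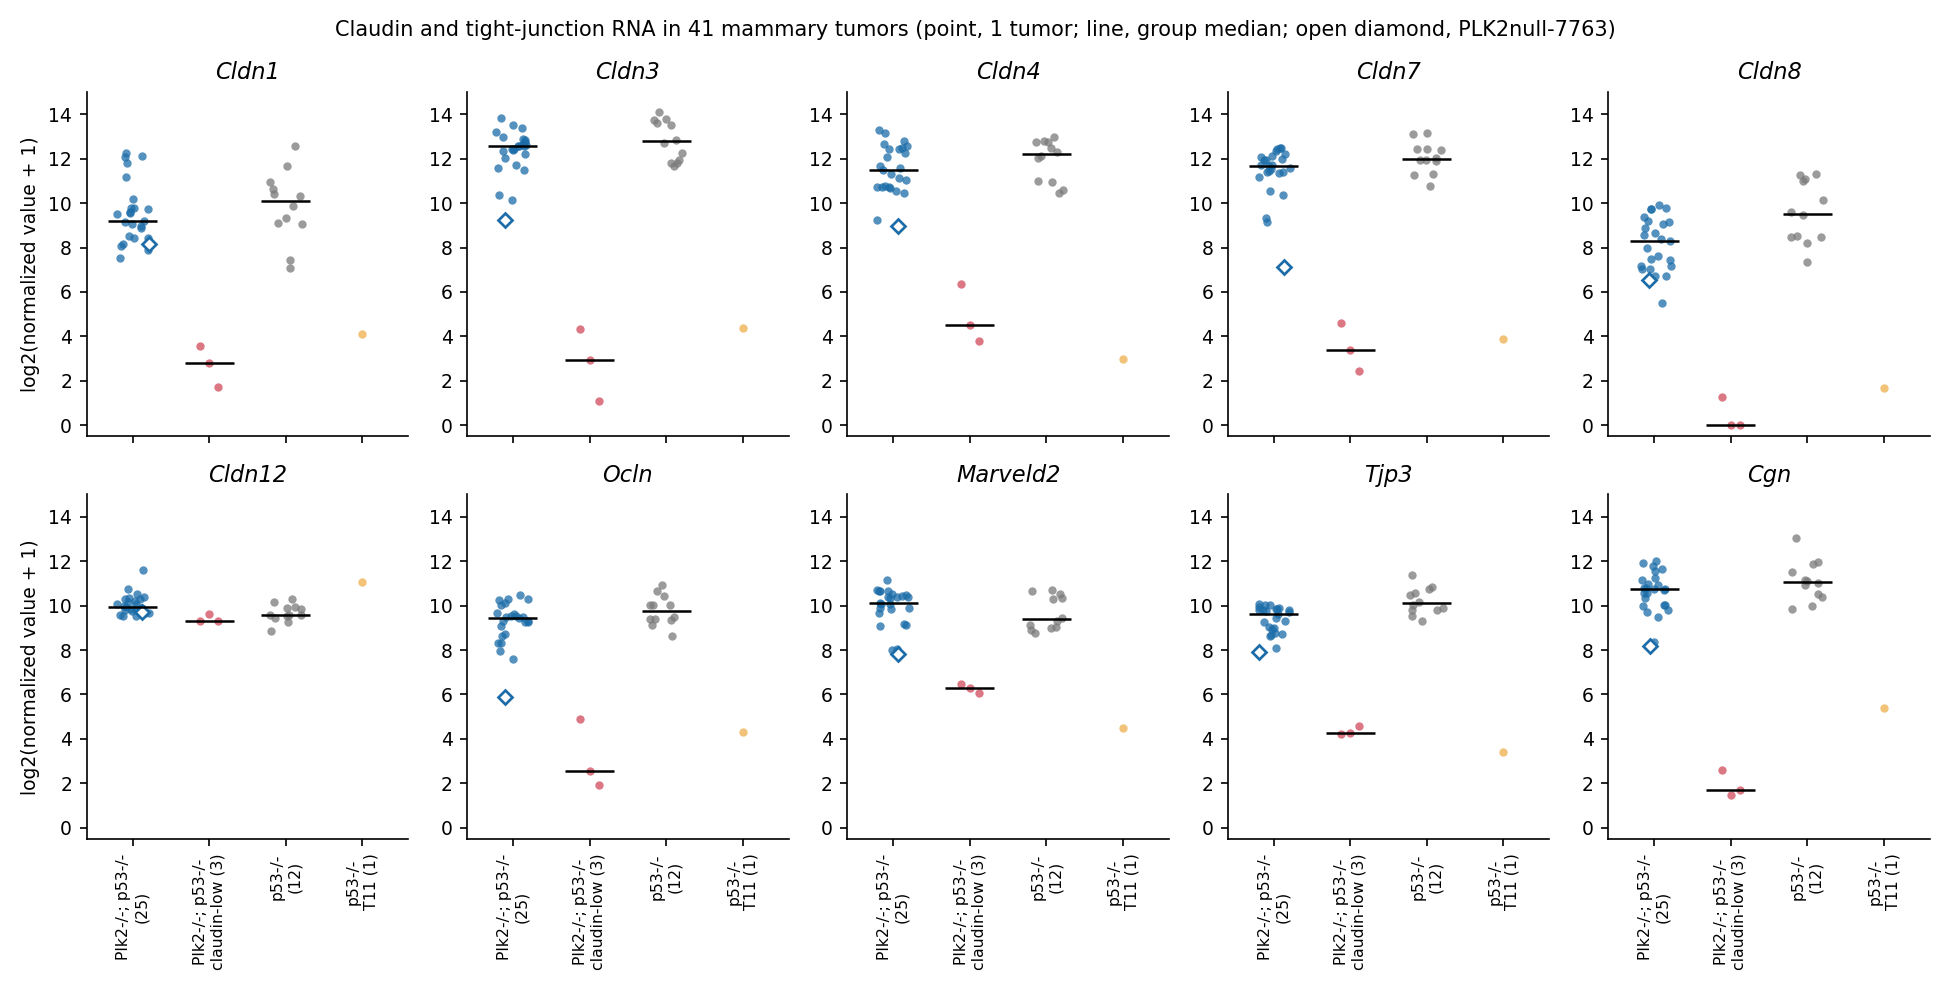
Normalized value of each gene by tumor, as log2(value + 1) on the vertical axis, for 25 Plk2-/-; p53-/- tumors, the 3 claudin-low Plk2-/-; p53-/- tumors, 12 p53-/- tumors and T11. Points are tumors, lines are group medians and the open diamond is PLK2null-7763. The claudin-low tumors lie below all other tumors of their genotype for each gene except Cldn12.

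Cldn3 and Cldn7 are claudins that line the lateral membrane of luminal cells. Cldn3 was at 19.3, 6.59 and 1.13 in PLK2null-732, PLK2null-733 and PLK2null-743, and at 608 to 14464 (median, 6005) in the other 25, a difference of -9.48. The value in PLK2null-743 came from 2 reads. Cldn7 was at 23.6, 9.59 and 4.52 in the 3 tumors and at 138 to 5749 (median, 3282) in the 25, a difference of -7.85.

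Cldn4, the neighbour of Cldn3 and like it a receptor of a clostridial enterotoxin, was at 80.9, 22.2 and 12.99 in the 3 tumors against 501 to 9933 (median, 2859.9). The difference was -6.59, a 96.3-fold lower level on the log2(value + 1) scale. Cldn1, the claudin of the epidermal barrier, was at 10.7, 5.99 and 2.26 against 186 to 4862 (median, 576), a difference of -6.83. In all 3 tumors Cldn8, a claudin of the distal nephron and of other tight epithelia, was under the floor, with 2, 0 and 0 reads, while the other 25 tumors ranged from 44.4 to 959 (median, 309). No fold is given for Cldn8 because the 3 tumors are under the limit of detection.

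Cldn12 lacks the PDZ-binding tail by which most claudins attach to the ZO proteins. It was at 633, 778 and 626 in the 3 claudin-low tumors and at 748 to 3129 (median, 964) in the other 25. The difference was -0.65, against an SD of 0.45 among the 25, and 3 of the 25 tumors lay below the highest of the 3.

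Among the MARVEL proteins, Ocln was at 28.6, 4.79 and 2.82 in the claudin-low tumors and at 58.7 to 1426 (median, 696) in the other 25, a difference of -6.07. Marveld2 was at 88.1, 76.7 and 66.1 against 223 to 2246 (median, 1124), a difference of -3.63 or 12.4-fold. After Cldn12, Marveld2 had the smallest difference of the 10 genes, and its 3 values rested on 117 to 128 reads each.

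The plaque genes divided in size. Tjp3 was at 17.9, 17.98 and 22.6 in the 3 tumors, a narrow range, and at 240 to 1084 (median, 799) in the 25, a difference of -5.01 or 32.2-fold. Cgn was at 5.07, 1.77 and 2.26 against 286 to 4098 (median, 1718), a difference of -8.64. Reads for Cgn numbered 7.08, 2.95 and 4 in the 3 tumors, so its exact level there is not resolved at this depth.

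T11 gave the same division among the p53-/- tumors, as 1 library set beside 12. It lay below all 12 other p53-/- tumors for 9 of the 10 genes, a pattern of 17.6% of 16666 genes, and above all 12 for Cldn12, a pattern of 12.6%. Cldn4 was at 6.92 in T11 and at 1401 to 8013 in the other 12. Cldn3 was at 19.9 against 3293 to 17439, and Cldn7 at 13.8 against 1721 to 8981. The other low genes ranged in T11 from 2.16 for Cldn8, which is 5 reads, to 41.4 for Cgn, the latter against 917 to 8380 in the other 12. Cldn12 was at 2126 in T11 and at 456 to 1264 (median, 763) in the other 12, so that this gene stood on opposite sides of its genotype in the claudin-low tumors of the 2 groups. T11 kept Krt8 and Krt18 RNA while the 3 Plk2-/-; p53-/- tumors had 5.99 to 87.4 for each of the 4 epithelial markers. Epcam at 81.4 and Cdh1 at 61.9 in T11 lay in that same range. The epithelial sum of T11, 33708, was below that of all 12 other p53-/- tumors (56359 to 272602). The 9 genes were low in T11 and in the 3 tumors, and the part of epithelial content was not tested.

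PLK2null-7763, which is not among the claudin-low tumors but had the highest endothelial sum of the other 25, was the lowest of those 25 for 7 of the 10 genes. It had Cldn3 at 608, Cldn4 at 501, Cldn7 at 138, Ocln at 58.7, Marveld2 at 223, Tjp3 at 240 and Cgn at 286. These values were still above all 3 claudin-low tumors. Without this tumor the lowest of the others were 566 for Cldn7 (PLK2null-7747) and 190 for Ocln (PLK2null-1964), and the median difference of the 10 genes was -6.79. Its epithelial sum, 12794, was the lowest of the 25, and its part in these values was not tested. PLK2null-1963, which the study names as basal-like, had Cldn3 at 5469.6 and Cldn7 at 2329. PLK2null-7747, also entered here as basal-like, had Cldn7 at 566. The luminal-like tumors PLK2null-1975 and p53null-2208L had Cldn3 at 5338 and 12533.

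**Figure D2:**
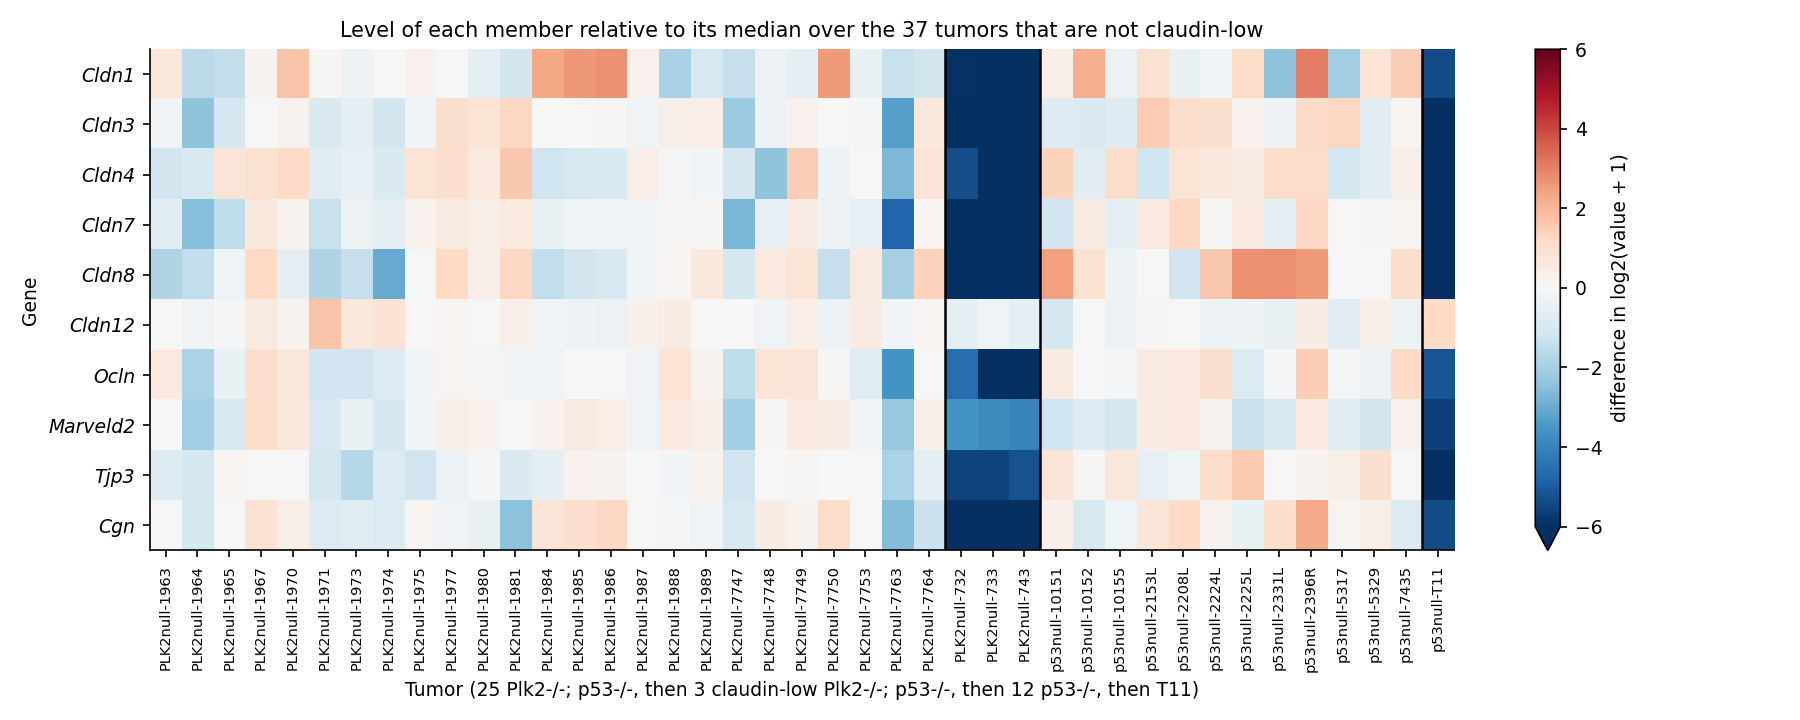
Each gene (rows) in each of 41 tumors (columns), as the difference in log2(value + 1) from the gene's median over the 37 tumors that are not claudin-low, with the color scale ending at -6 and 6. The 3 claudin-low Plk2-/-; p53-/- tumors and T11 are low for 9 genes, PLK2null-7763 is low for most of them, and Cldn12 is near its median or above it in T11.

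Other claudins did not all share the pattern. Of 27 further claudin symbols in the table, 7 reached a mean of 10 in the Plk2-/-; p53-/- tumors. In all 3 claudin-low tumors 2 of the 7 were below all 25 other tumors and 1 was above, with a median difference of -2.34. Of all genes compared, 8.87% and 11.1% had these patterns. Cldn2, a cation-pore claudin, was at 0.72, 0 and 0 against 23.03 to 3612, and Cldn10, also a pore former, was at 0, 1.198 and 3.95 against 5.24 to 1976. Cldn5, the claudin of endothelial junctions, was at 28681, 27027 and 30519 against 56.2 to 12653, and the highest of the 25 was again PLK2null-7763. Cldn15 was at 2387, 3118 and 2484, and PLK2null-7763 at 3053 overlapped that range while the other tumors had a median of 39.5. In T11 Cldn5 was at 720 and Cldn15 at 36.8, both inside the range of the other p53-/- tumors.

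Of 27 other tight-junction genes, 9 were below and 7 above all 25 other Plk2-/-; p53-/- tumors in all 3 claudin-low tumors, with a median difference of 0.42, where 8.87% and 11.1% of all genes had these patterns. The genes farthest below the other tumors belong to epithelial junctions. Marveld3, the remaining MARVEL protein, was at 2.86, 0 and 0.56 against 68.0 to 2032. Ildr1 and Lsr, angulins that recruit tricellulin to tricellular contacts, were at 3.595 to 7.16 and 28.2 to 42.2 against 235 to 1486 and 941 to 8647. Crb3, a polarity protein, was at 2.82 to 2.996 against 106 to 581, and Cxadr, the coxsackievirus and adenovirus receptor, at 38.4 to 137 against 1214 to 17592. Of the genes farthest above the other tumors, Esam and Jam3 are adhesion proteins that endothelial cells also use. Esam was at 8519 to 11231 against 163 to 5093 and Jam3 at 1568 to 2005 against 37.4 to 734. Amotl1 was at 20111 to 29240 against 3230 to 11087 and Tjp1, the gene of ZO-1, at 13208 to 16745 against 2585 to 5766. Prkcz, an atypical protein kinase C of the polarity complex, was at 593 to 822 against 10.1 to 740. In T11, 10 of these 27 genes were below and 5 above all 12 other p53-/- tumors, with a median difference of -0.20. Of all genes, 17.6% and 12.6% had these patterns. Marveld3, Ildr1, Lsr and Crb3 were as low in T11, at 1.73, 2.60, 31.1 and 0. Esam at 842, Tjp1 at 2835 and Amotl1 at 2185 were inside the range of the other 12. Jam3 at 352 was above all 12 (37.4 to 212), whereas Prkcz at 4.99 was below all 12 (172 to 1021).

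Among 11 known regulators of claudin genes, 6 were below and 1 was above all 25 other tumors in all 3 claudin-low tumors. The median difference was -2.36. Of all genes compared, 8.87% were below and 11.1% above, so the count above is near its share. The 6 were activators of epithelial programs or regulators of epithelial splicing. Esrp1, an epithelial splicing regulator, was at 7.16, 0 and 0 against 314 to 6782, Elf3 at 0.56 to 6.44 against 184 to 2976 and Grhl2, a grainyhead-like factor, at 6.21 to 41.5 against 998 to 3473. Ovol2 was at 0 to 2.82 against 34.3 to 346, and Grhl1 at 11.98 to 21.5 against 383 to 2499. Zeb1, a repressor of epithelial genes, was at 5119, 5682 and 7320 against 152 to 2344, with PLK2null-7763 the highest of the 25. Zeb2 at 1873 to 2382, Snai2 at 284 to 439 and Snai1 at 635 to 858 overlapped the other tumors, and Twist1 at 178 to 221 lay in the lower part of a range of 58.7 to 1529. T11 had Esrp1 at 6.49, Elf3 at 4.33, Grhl2 at 6.92 and Zeb1 at 2930, against 103 to 1291 for Zeb1 in the other 12. Twist1 in T11, at 1459, was above all 12 (207 to 1177), unlike its place in the 3 tumors.

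**Figure D3:**
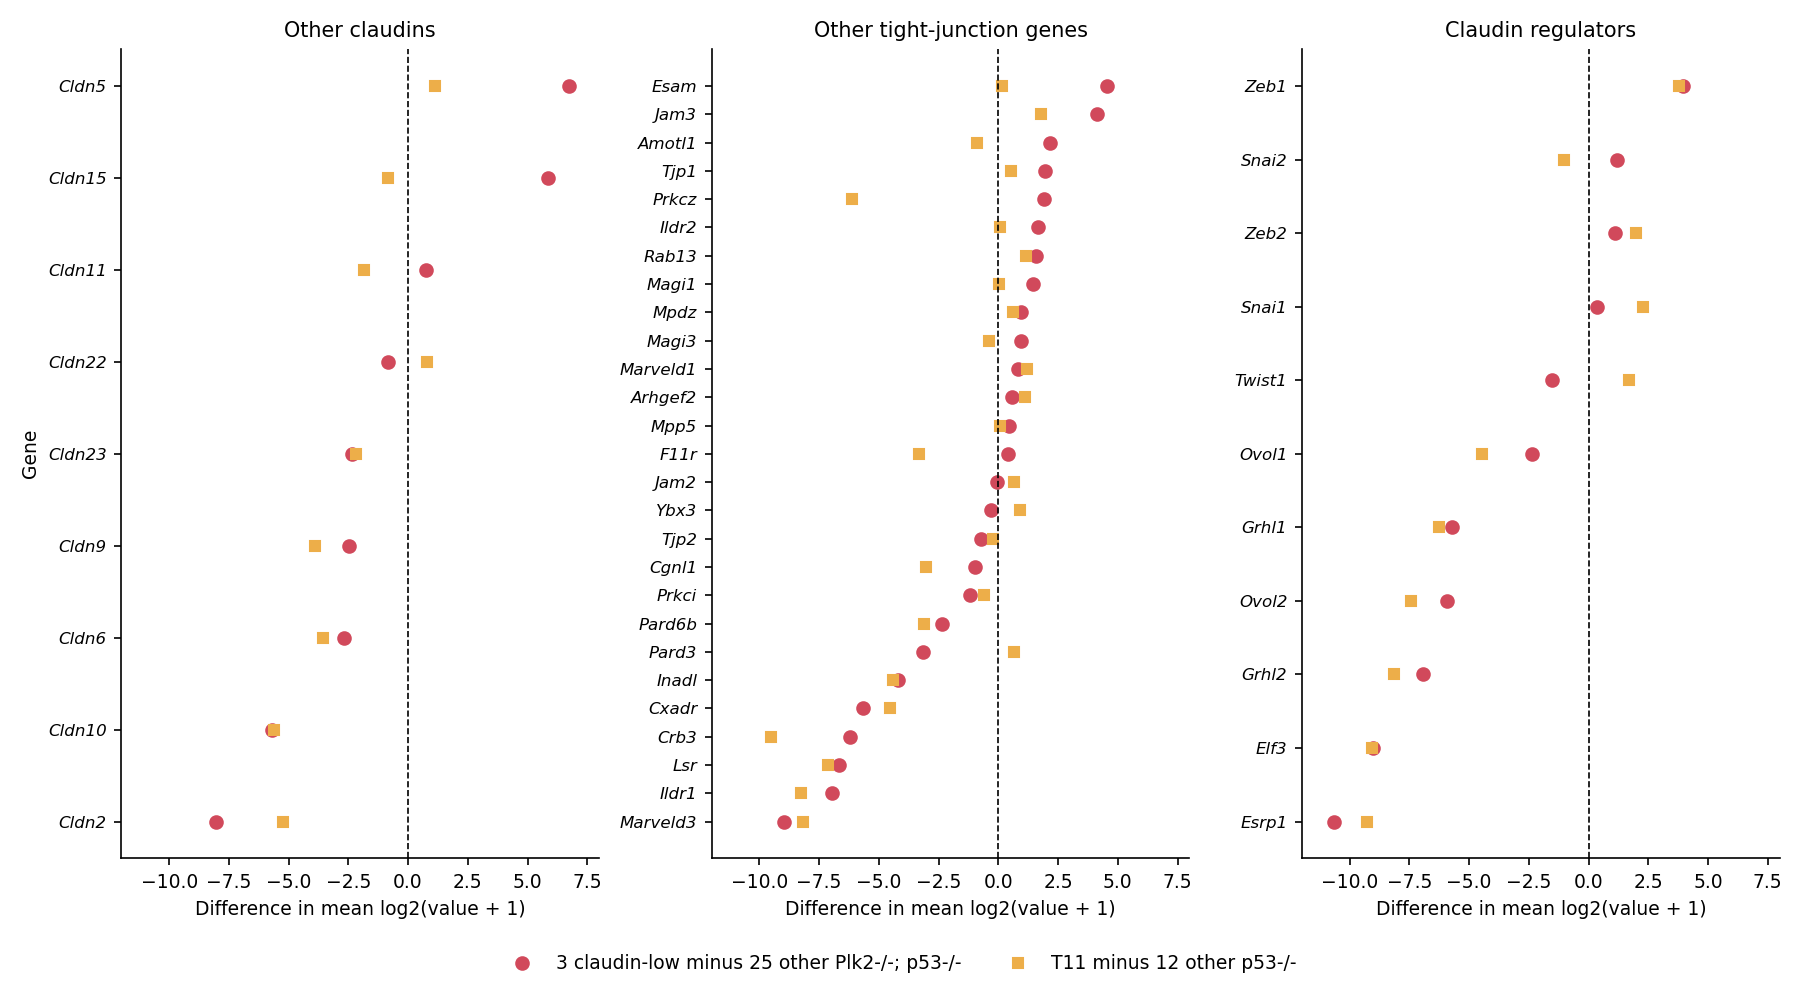
Differences in mean log2(value + 1) on the horizontal axis for 9 other claudins, 27 other tight-junction genes and 11 regulators, with circles for the 3 claudin-low tumors minus the other 25 Plk2-/-; p53-/- tumors and squares for T11 minus the other 12 p53-/- tumors. Marveld3, Ildr1, Lsr, Crb3 and Cxadr are far to the left in both. F11r, Pard3 and Prkcz are among the genes with the circle and the square on opposite sides of 0. Cldn5, Cldn15, Esam and Jam3 are far to the right for the circles, at 6.73, 5.85, 4.54 and 4.14.

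The loss of Plk2 was then examined by comparing the 28 Plk2-/-; p53-/- tumors with the 13 p53-/- tumors. None of the 10 genes passed the test, against 39.5% of all 17208 genes tested, which comprised 15.3% lower and 24.3% higher in the Plk2-/-; p53-/- tumors. The 0 calls come from limma with Benjamini-Hochberg adjustment at 0.05, and 0 of the 10 had an unadjusted p under 0.05. No other tool was run. The split of all calls depended on the scaling, with 61.4% of them higher in the Plk2-/-; p53-/- tumors as deposited and 49.3% after rescaling by the median ratio, which moved the median of all genes by -0.11 and that of the 10 genes to -0.96. Of the 10 differences 8 were negative, with a median of -0.84 beside 0.10 for all genes tested, but the tumors of both groups spread widely. The intervals leave room for large differences in either direction, since that of Cldn3 ran from -2.89 to 1.06 and that of Cgn from -2.75 to 0.68.

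The 4 claudin-low tumors, 3 of the 28 and 1 of the 13, were then left out. The clustering behind the claudin-low class used genes that include Cldn3, Cldn7 and Marveld2, so this choice depends on values of the 10 genes. It also removed the lowest values of 9 genes in each genotype, and the SE of Tjp3 was 0.58 before and 0.22 after. The p-values below do not account for this choice. In the remaining 37 tumors, 3 of the 10 genes passed, where 42.4% of 17080 genes did, 17.4% lower and 25% higher. Tjp3 and Cldn8 were lower in the Plk2-/-; p53-/- tumors and Cldn12 was higher. The share of members that passed was thus below that of all genes in total and for the higher genes, and near it for the lower genes. The marker lists also differed between these groups of 25 and 12 tumors. The epithelial sum was 12794 to 109867 (median, 70381) in the 25 and 56359 to 272602 (median, 108789) in the 12, the basal sum 48.1 to 47140.3 (median, 3702) and 239.7 to 132918 (median, 23016). Leukocyte markers (Ptprc, Cd3e, Cd79a and Cd68) summed to 718 to 8134 (median, 3270.1) in the 25 and 639 to 4767 (median, 1426) in the 12. The part of these lists in the differences of Tjp3, Cldn8 and Cldn12 was not tested.

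Tjp3, the scaffold ZO-3, was at 240 to 1084 (median, 799) in the 25 Plk2-/-; p53-/- tumors and at 640 to 2623 (median, 1101) in the 12 p53-/- tumors. All 25 were below the p53-/- median, and 11 were below the lowest p53-/- tumor. The difference was -0.86 ± 0.22 (SE), a 1.81-fold lower level, with an adjusted p of 0.00144 in limma. It kept its call in each of the 7 alternatives run on the 37 tumors, with adjusted p-values from 0.000725 to 0.0491, the last with only the 7 primary Plk2-/-; p53-/- tumors named by the study.

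Cldn8 was at 44.4 to 959 (median, 309) in the 25 tumors and at 164 to 2521 (median, 739) in the 12. Of the 25, 21 were below the p53-/- median and 8 below the lowest p53-/- tumor. The difference was -1.46 ± 0.43 (SE), 2.75-fold, with an adjusted p of 0.00654 in limma. With only the 7 primary tumors it was -1.20 with an adjusted p of 0.183 in limma.

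Cldn12 was at 748 to 3129 (median, 964) in the 25 tumors and at 456 to 1264 (median, 763) in the 12, and 6 of the 25 were above the highest p53-/- tumor. The difference was 0.40 ± 0.16 (SE), 1.32-fold, with an adjusted p of 0.0379 in limma. The call was lost with quantile normalization (adjusted p = 0.0722), with rescaling by the median ratio (0.127), with the 7 primary tumors (0.387) and without the library labelled p53null-7435 (0.0522).

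The other 7 genes overlapped widely between the genotypes in the 37 tumors, with intervals that crossed 0. Cldn7 was at 138 to 5749 (median, 3282) in the 25 and at 1721 to 8981 (median, 4086) in the 12, with a difference of -0.71 (95% interval, -1.48 to 0.05). Ocln was at 58.7 to 1426 (median, 696) and 393 to 1935 (median, 867), with a difference of -0.59 (-1.23 to 0.06). Cldn3 had a difference of -0.55 (-1.25 to 0.16), Cgn of -0.55 (-1.21 to 0.12), Cldn4 of -0.44 (-1.18 to 0.30) and Cldn1 of -0.36 (-1.37 to 0.65). Marveld2 had a difference of 0.24 (-0.36 to 0.83), and its median was 1124 in the 25 and 670.3 in the 12.

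**Figure D4:**
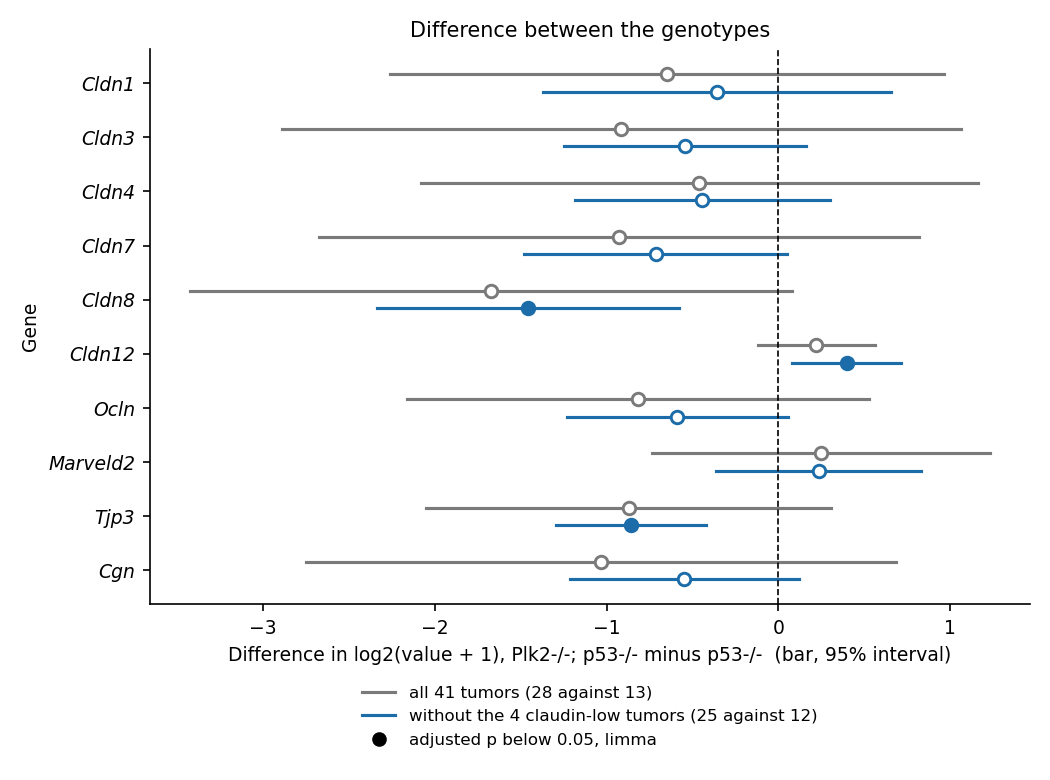
Difference in log2(value + 1) between the genotypes for each gene, Plk2-/-; p53-/- minus p53-/-, with 95% intervals, for all 41 tumors (gray) and for the 37 tumors that are not claudin-low (blue). Filled points have an adjusted p below 0.05 in limma, which holds for Tjp3, Cldn8 and Cldn12 in the 37 tumors and for no gene in the 41.

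The other genes of the junction were read in the same fit over 41 tumors. Of 8 other claudins tested, 2 were lower and 0 higher in the Plk2-/-; p53-/- tumors, where 15.3% and 24.3% of all genes were. One of the 2, Cldn9, had a mean of 8.89 in the 28 tumors and of 238 in the 13, so it passed the filter on low values only through the p53-/- tumors and its call is not read as a result. Its medians were 4.41 and 53.3. Its convergent neighbour Cldn6 had medians of 2.83 and 44.98, with a difference of -3.22 and an adjusted p of 0.0318. Cldn6 did not keep its call without the library labelled p53null-7435 (adjusted p = 0.0578 in limma). These 2 genes end next to each other on opposite strands of chromosome 17 and do not overlap in the GENCODE vM21 annotation. Whether reads past the end of either gene were counted for the other was not tested.

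Of 27 other tight-junction genes, 5 rose and 1 fell, a share of calls below that of all genes. Tjp1 rose with medians of 3813 and 2289 and a difference of 1.12 (adjusted p = 8.0e-05 in limma), and 20 of the 28 tumors were above all p53-/- tumors. The PDZ scaffolds Magi1 and Mpdz differed by 0.78 and 0.90, the angiomotin Amotl1 by 0.71 and Arhgef2 by 0.54, all higher. Ybx3, a Y-box factor that binds ZO-1, fell by 0.72 (adjusted p = 1.89e-05 in limma), with medians of 3193 and 5245. Tjp1, Magi1, Amotl1 and Arhgef2 were also above all 25 other tumors in the 3 claudin-low tumors. Without the 4 claudin-low tumors the differences were 0.95 for Tjp1, 0.62 for Magi1, 0.85 for Mpdz, 0.41 for Amotl1 and 0.56 for Arhgef2, and each kept its call, with the adjusted p of Amotl1 at 0.0421 in limma. When the 7 primary Plk2-/-; p53-/- tumors alone were set against the 13, Tjp1 kept its call (adjusted p = 0.00597 in limma), and the other 4 higher genes had adjusted p-values of 0.0595 to 0.197. In the 37 tumors Crb3, Pard6b, Prkcz and Esam were also lower, with Crb3 at -1.33 (medians of 311 and 757, adjusted p = 3.4e-05 in limma).

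Of 11 claudin regulators, 2 rose and 1 fell in the 41 tumors, a share below the 39.5% of all genes called. Snai1, the gene of Snail, had medians of 811 and 164, with a difference of 1.55 and an adjusted p of 0.00317 in limma. Zeb2 had medians of 1071 and 349.8, with a difference of 1.405 and an adjusted p of 7.2e-05. Snai2, the gene of Slug, had medians of 96.3 and 622, with a difference of -1.74 and an adjusted p of 0.024 in limma. All 3 kept their calls without the 4 claudin-low tumors, where Elf3 and Ovol1, factors of epithelial differentiation, were also lower, with differences of -1.03 and -0.96. With the 7 primary Plk2-/-; p53-/- tumors against the 13, none of the 3 kept its call, with adjusted p-values in limma of 0.0929 for Snai1, 0.128 for Zeb2 and 0.366 for Snai2. Median sums of basal markers (3702 and 23016) and of leukocyte markers (3270.1 and 1426) also differed between the 25 and the 12 tumors, and their part in these differences was not tested.

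How the genes moved together was read within each genotype in the tumors that are not claudin-low, for 4 pairs in 2 genotypes, 8 relations in all. Cldn3 and Cldn7 correlated at r = 0.94 and rho = 0.84 in the 25 Plk2-/-; p53-/- tumors (permutation p = 1e-05 for each, adjusted 4e-05), where 1e-05 is the smallest that 100000 resamples can give. Without the 2 tumors farthest from the median, PLK2null-1964 and PLK2null-7763, r was 0.88. In the 12 p53-/- tumors r was 0.61 and rho 0.52 (permutation p = 0.0381 and 0.0892, adjusted 0.0508 and 0.119).

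The neighbours Ocln and Marveld2 correlated in both genotypes, with r = 0.89 and rho = 0.86 in the 25 tumors (permutation p = 1e-05 for each, adjusted 4e-05) and r = 0.81 and rho = 0.81 in the 12 (permutation p = 0.00203 and 0.00198, adjusted 0.00325 and 0.00371). Without the 2 farthest tumors r was 0.82 and 0.73. The neighbours Cldn3 and Cldn4 correlated in the 25 tumors, at r = 0.64 and rho = 0.59 (permutation p = 0.0006 and 0.00232, adjusted 0.0012 and 0.00371), and r was 0.50 without the 2 farthest. In the 12 p53-/- tumors their r was -0.24 and rho -0.40 (permutation p = 0.449 and 0.201, adjusted 0.449 and 0.230).

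The plaque genes Tjp3 and Cgn had r = 0.71 and rho = 0.69 in the 25 tumors (permutation p = 9e-05 and 0.00015, adjusted 0.00024 and 0.0004), and r = -0.29 and rho = -0.34 in the 12 (permutation p = 0.358 and 0.278, adjusted 0.409 and 0.278). Without the 2 farthest tumors r was 0.63 and -0.14. Whether r differs between the genotypes was not tested, and tumors of 1 transplant line would not be independent. Over all 45 pairs of the 10 genes, r had a median of 0.49 in the 25 tumors, with 21 pairs above 0.5, and of 0.22 in the 12, with 7 above 0.5. Cldn12 stood apart in the 25 tumors, where its 9 pairs ran from -0.23 to 0.22. In the 12 p53-/- tumors they ran from -0.27 to 0.78, the highest with Cldn7, with a median of 0.28.

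For each gene the 3 genes of closest pattern were found by Pearson's r over the 37 tumors, as a description. Cldn3 and Cldn7 were each other's closest gene at r = 0.88, and both were followed by Spint1, an inhibitor of membrane serine proteases, at 0.87 and by St14, the protease matriptase, at 0.85 and 0.86. St14 was also second for Marveld2 at 0.82, after Shroom3 at 0.83. Ocln was closest to Esrp1 at 0.84 and to Erbb2 at 0.83, Tjp3 to the polarity gene Crb3 at 0.76 and Cgn to Bnipl at 0.79. Cldn1 was closest to Fam234b at 0.84, Cldn4 to Elmo3 at 0.73, Cldn8 to Spint2 at 0.70 and Cldn12 to Dennd1b at 0.70. For Tjp3 and Crb3 the value rested on the larger group, with r = 0.83 in the 25 tumors and 0.09 in the 12.

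Marveld2 and Ocln, which moved together within each genotype, did so at another ratio in each. The ratio of Marveld2 to Ocln, computed with 1 added to each value, had a median of 1.74 in the 28 Plk2-/-; p53-/- tumors (range, 0.890 to 17.5) and of 0.909 in the 13 p53-/- tumors (0.459 to 1.57). It was above 1 in 27 of the 28 and in 5 of the 13, and 17 of the 28 were above every p53-/- tumor. The mean difference was 1.06 on the log2 scale, a 2.09-fold higher ratio. The highest ratios, 13.4 in PLK2null-733 and 17.5 in PLK2null-743, rested on 8 and 5 reads of Ocln. Without the 4 claudin-low tumors the highest ratio was 3.75, in PLK2null-7763, and the difference was 0.82, or 1.77-fold. With the 7 primary tumors alone the difference was 0.85. The ratio was formed after the values of both genes had been seen, so it is a description of these tumors and no p-value is given. Tumors of 1 transplant line would also not be independent. In T11 the ratio was 1.13, near that of the other p53-/- tumors, although both genes were low there. Marveld2 and Ocln lie on the chromosome of Plk2, with Ocln 9.84 Mb from it. The study made its Plk2-/- line Balb/c by more than 5 generations of backcrossing. The part of donor DNA linked to the Plk2 allele in this ratio was not tested.

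**Figure D5:**
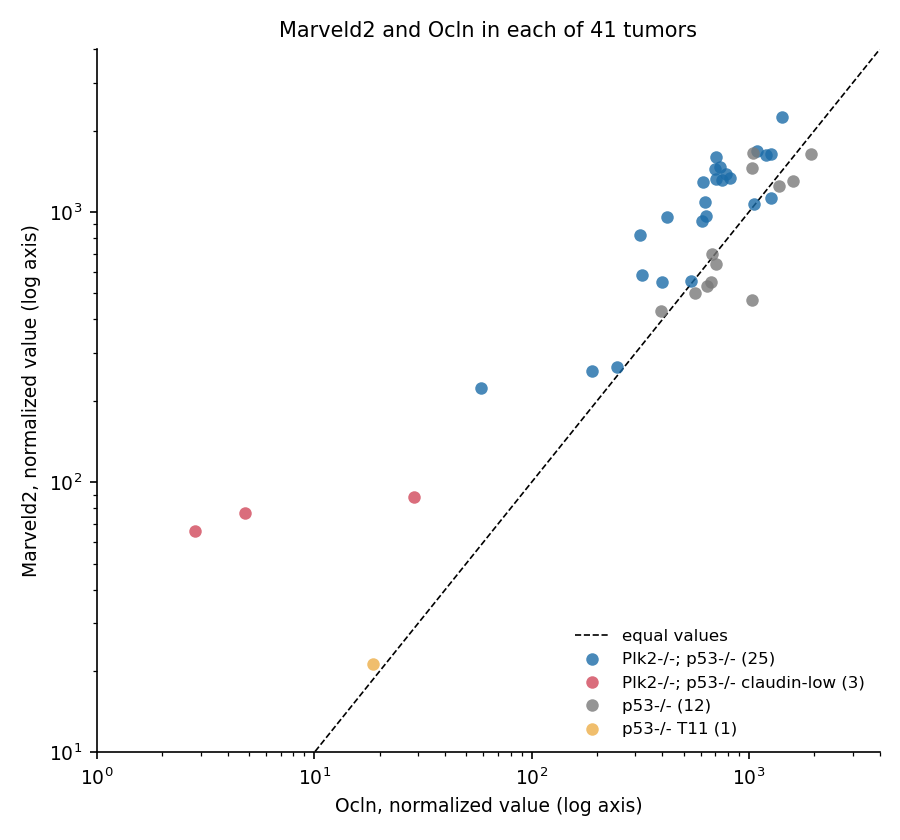
Marveld2 against Ocln in each of 41 tumors, both as normalized values on log axes, with a dashed line where they are equal. Of the 28 Plk2-/-; p53-/- tumors 27 lie above the line, and the p53-/- tumors lie on both sides of it, 5 of 13 above.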

How the data were processed

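The authors aligned paired 50-base reads to mm10 and quantified genes; their processing notes name STAR 2.7.6a, Salmon 1.4.0, SAMtools and Picard 2.22.4. The annotation they counted on is not given in the sources used here. They deposited a normalized signal per gene, linear, scaled to the upper quartile. Only 73.8 to 80.3% of nonzero values lay within 0.1 of a whole read, so no count model was used.

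Columns were matched to tumors by title, genotype came from the labels and subtype from the study. PLK2null-732 and PLK2null-733 were grouped as claudin-low with PLK2null-743. Genes with a mean of at least 10 were tested on log2(value + 1) with limma 3.58.1 (R 4.3.3), threshold 0.05 after Benjamini-Hochberg adjustment over all genes. Permutation tests used 100000 resamples (scipy 1.17.1). Named genes were the 10 genes, Plk2, Trp53, called or most extreme genes of each fixed list, and the 3 genes closest in pattern to each member. Members, lists and tests were chosen with earlier results of these data known. The fit was tested on simulated data. The closest libraries, PLK2null-1984 and PLK2null-7750, differed by more than sampling noise (median chi-square of 5.13 per gene), and each tumor was entered once. Alternatives were other pseudocounts, filters, scalings and sets of tumors. Other data of the study were not analysed here.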

Additional observations from a re-analysis of the deposited data

Results flagged for a closer look

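Cldn1 was at 4306 in PLK2null-7750 and at 281 to 562 in the other 6 primary tumors named by the study. Its gap to the next tumor was 0.93 of the whole range, above the critical value of 0.568 for 7 samples. This was the only flag in 20 such checks over the 10 genes, with the highest and the lowest tumor of each gene checked apart. The checks were not adjusted for their number, so chance is not excluded. Of the 28 Plk2-/-; p53-/- tumors PLK2null-7750 was the third highest for Cldn1, after PLK2null-1986 at 4862 and PLK2null-1985 at 4459.

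Cldn12 lay on opposite sides in the claudin-low tumors of the 2 genotypes. It was at 2126 in T11, above all 12 other p53-/- tumors, and at 626 to 778 in the 3 claudin-low Plk2-/-; p53-/- tumors, of which 2 were below all 25 others and the third was above 3 of them. The difference was not tested, and T11 is a single library.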

How the results depend on the processing

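No paired analysis was possible because the labels give no replicate numbers that the genotypes share. Without the 4 claudin-low tumors, calls moved to 2 members lower and 1 higher, 1 other claudin higher (Cldn2), 5 other tight-junction genes lower and 3 regulators lower. With the 7 primary tumors only, 1 other claudin was lower, 1 other tight-junction gene higher and 0 regulators lower or higher, with 970 genes lower and 1972 higher in all, from fewer tumors. Without the library labelled p53null-7435, 1 other claudin was lower. With no filter, 1 other claudin was higher. With quantile normalization 2 other tight-junction genes and 2 regulators were lower, and with median ratio rescaling 2 regulators. In the 37 tumors, 1 member was lower with the 7 primary tumors, and 0 were higher with them, with quantile normalization, with median ratio rescaling or without p53null-7435. Marveld2 then reversed to -0.034 with the 7 primary tumors (adjusted p = 0.969 in limma), where it passed in neither fit. The cause was not tested. The median difference of the 10 genes between claudin-low and other tumors was -5.24 with a pseudocount of 10, which shrinks low values by construction, and -7.29 to -6.19 when each claudin-low tumor was left out. Cldn3 and Cldn7 in the p53-/- tumors reached r = 0.74 (adjusted p = 0.0264 by permutation) without the 2 farthest tumors. Of 361 recomputed values 325 kept their direction and their side of the threshold or, for counts and untested values, stayed close to the value reported. Depth limits Cldn8, Cgn and Cldn3 in the claudin-low tumors, where a few reads or none set the value.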

Other observations

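Cldn1 was high in a set of 4 Plk2-/-; p53-/- tumors, PLK2null-1984, PLK2null-1985, PLK2null-1986 and PLK2null-7750, at 3577 to 4862, while the next highest tumor was at 2338. The same 4 tumors were among the 5 highest of the 28 for Cgn, at 3027 to 4098, and 4 of the 5 closest pairs of libraries in the series were pairs among them. The remaining pair was PLK2null-732 with PLK2null-733, both claudin-low. The 4 tumors with high Cldn1 were singled out after their values were seen. The labels do not say whether the tumors of either set share a transplant line.

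Cldn8 spread most widely among the p53-/- tumors after Cldn1, with an SD of 1.37 on the log2 scale over the 12 that are not claudin-low. It was at 2521, 2483, 2174 and 2036 in p53null-2331L, p53null-2225L, p53null-2396R and p53null-10151, and the highest of the 28 Plk2-/-; p53-/- tumors was at 959. These tumors, too, were singled out after their values were seen.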
